A study of Mus musculus with 15 samples.

Results

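The 36 genes described here are p53 (Trp53), its inhibitor Mdm2, transcriptional targets of p53 in growth arrest, DNA repair and cell death, and the regulators that carry out apoptosis. They were chosen by gene symbol from a written list. All 36 were found among the 14337 genes of the deposited table, and all 36 were among the 12848 genes that were tested because their mean over the libraries was 0 or more in log2 RPKM. RPKM is a read number scaled to gene length and library size, so levels of different genes can be set side by side on this scale.

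RNA-Seq was performed on primary cardiomyocytes from hearts of wild-type C57/BL6 mouse pups aged 1 to 3 days. Cells of all 4 groups were cultured for 5 days, starved for 24 h in 0.5% FBS, returned to growth medium and lysed on day 8. The control group received saline (libraries S1, S2 and S3), and the AngII group received 1 µM angiotensin II, a peptide hormone that enlarges cultured cardiomyocytes, from day 6 (S5, S6, S7 and S8). The ldCil group received 20 nM cilengitide, a cyclic peptide that binds αv integrins (S9, S10, S11 and S12), and the AngII + ldCil group received both agents at these doses (S13, S14, S15 and S16). No source used here says that the replicates were separate cultures, so a p-value given here rests on the spread among libraries alone, part or all of which may be technical. Read numbers were not used here, so the depth of each library and its counting error are unknown.

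The p53 protein is a transcription factor that is held at a low level by Mdm2, a ubiquitin ligase that is itself a p53 target. When p53 is stabilised by DNA damage or other stress, it binds paired half-sites near its targets and raises their transcription, while the level of its own mRNA need not change. Its targets stop the cell cycle (Cdkn1a, which encodes p21), aid repair, and prime the mitochondrial route to apoptosis, in which BH3-only proteins release BAX and BAK1 from BCL-2, BCL-XL and MCL1, and cytochrome c then assembles APAF1 and caspase 9. Cardiomyocytes leave the cell cycle soon after birth, and their loss by apoptosis is a known feature of failing hearts.

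Promoter sequence from RefSeq (GRCm38.p6, 250 bases before to 50 bases after each start) was found for 27 of the 36 genes. The window held a p53 consensus half-site with no mismatch, a motif of 10 bases that reads the same on both strands, in 10 of these 27 genes (37.0%), against 8.31% of the tested genes with an entry (793 of 9547). The genes with a half-site were Trp53, Mdm2, Cdkn1a, Ccng1, Gadd45a, Sesn1, Polk, Aen, Ei24 and Bax. Cdkn1a alone among the 27 held 2 half-sites within 13 bases of each other, the arrangement of a full site, which was seen in 5 tested genes in all (0.0524%). No entry was used for Ddb2, Xpc, Rrm2b, Zmat3, Perp, Trp53inp1, Tnfrsf10b, Pmaip1 and Bnip3l. The windows of 4 genes are shown because Cdkn1a holds the full site, Ccng1 and Ei24 were the genes with an unadjusted p under 0.05 in a comparison of treatments, and Aen stood far above the rest in 1 library, S16. Of the genes with an entry, Eda2r, Phlda3, Cdkn1a and Ccng1 stood farther above the next library in S16. They did so by 1.39, 0.86, 0.66 and 0.64 log2 units, against 0.63 for Aen. The windows of Eda2r and Phlda3 held no half-site. Capitals mark the half-sites in Cdkn1a (chr17:29090729-29091028, plus strand), Ccng1 (chr11:40755237-40755536, minus strand), Ei24 (chr9:36797285-36797584, minus strand) and Aen (chr7:78895677-78895976, plus strand), and a match is a description of letters, not of binding.
Cdkn1a: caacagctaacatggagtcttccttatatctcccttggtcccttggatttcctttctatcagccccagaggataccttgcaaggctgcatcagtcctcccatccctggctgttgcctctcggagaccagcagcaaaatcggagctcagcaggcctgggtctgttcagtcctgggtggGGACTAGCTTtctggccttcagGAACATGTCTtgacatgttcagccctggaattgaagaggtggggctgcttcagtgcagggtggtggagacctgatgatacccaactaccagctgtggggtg
Ccng1: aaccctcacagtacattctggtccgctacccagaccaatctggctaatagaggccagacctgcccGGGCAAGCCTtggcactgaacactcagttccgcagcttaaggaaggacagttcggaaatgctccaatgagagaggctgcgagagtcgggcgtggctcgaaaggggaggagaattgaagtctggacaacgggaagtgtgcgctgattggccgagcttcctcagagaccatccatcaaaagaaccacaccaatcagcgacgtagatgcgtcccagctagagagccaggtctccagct
Ei24: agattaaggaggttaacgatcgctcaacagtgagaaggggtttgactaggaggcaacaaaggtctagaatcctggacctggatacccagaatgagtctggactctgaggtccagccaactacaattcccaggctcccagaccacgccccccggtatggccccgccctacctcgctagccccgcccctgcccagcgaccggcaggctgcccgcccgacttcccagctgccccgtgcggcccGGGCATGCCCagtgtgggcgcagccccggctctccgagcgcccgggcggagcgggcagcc
Aen: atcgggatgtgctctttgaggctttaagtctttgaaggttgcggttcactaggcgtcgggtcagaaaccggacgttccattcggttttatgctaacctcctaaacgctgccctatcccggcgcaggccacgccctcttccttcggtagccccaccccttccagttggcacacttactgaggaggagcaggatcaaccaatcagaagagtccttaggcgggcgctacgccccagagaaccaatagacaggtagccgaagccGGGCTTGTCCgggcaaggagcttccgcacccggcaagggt

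Before the comparisons, 4 facts of the libraries bear on these genes. Cardiomyocyte genes were abundant in each library, with cardiac actin Actc1 at a mean of 11.7 log2 RPKM and cardiac myosin Myh6 at 11.2, but fibroblast collagen Col1a1 (9.81) and the macrophage gene Lyz2 (7.37) were also present. In such bulk samples fewer cells of a type and less RNA per cell cannot be told apart. The lowest value in the table was below −4 in 8 libraries (S1, S2, S3, S5, S9, S10, S13 and S14) and above −4 in the other 7 (S6, S7, S8, S11, S12, S15 and S16), and the second set held 3 AngII, 2 ldCil and 2 AngII + ldCil libraries but 0 controls. The mean of 29 interferon-stimulated genes, centred on each gene's own mean, was 2.02 to 2.63 log2 units in S1, S3, S5, S9 and S10, 0.32 in S2 and −1.78 to −0.46 in the other 9. S16 had the lowest mean over 10 fibroblast markers (−1.16, against −0.28 to 0.49 in the other 14 libraries) and over 10 macrophage markers (−1.40, against −0.64 to 1.11, with S5 highest). The smallest adjusted p over all genes and all 5 contrasts was 0.782 (limma), so no gene of the table passed an adjusted p of 0.05 in any comparison.

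Levels of the 36 genes spanned a wide range. The cyclin Ccng1, a p53 target known for feedback on p53, had the highest mean over the 15 libraries, 9.15 ± 0.31 log2 RPKM (SD, n = 15). It was followed by the anti-apoptotic Mcl1 (8.02 ± 0.32), Cdkn1a (7.95 ± 0.50), the polo-like kinase Plk2 (7.62 ± 0.40) and Mdm2 (7.25 ± 0.24), and from Mcl1 to Mdm2 each gene differed from the next by less than the larger SD of the pair. Trp53 stood in the upper part of the range at 5.22 ± 0.16, with the smallest spread of the 36. The BH3-only genes were low, from Bcl2l11 (2.14 ± 0.36), which encodes BIM, to Bad (4.05 ± 0.34), and the damage sensor Ddb2 was the lowest of all at 1.38 ± 0.28. Bid, Dram1, Pmaip1 and Fas, with SDs of 0.908, 0.831, 0.777 and 0.637, varied most between libraries.

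**Figure D1:**
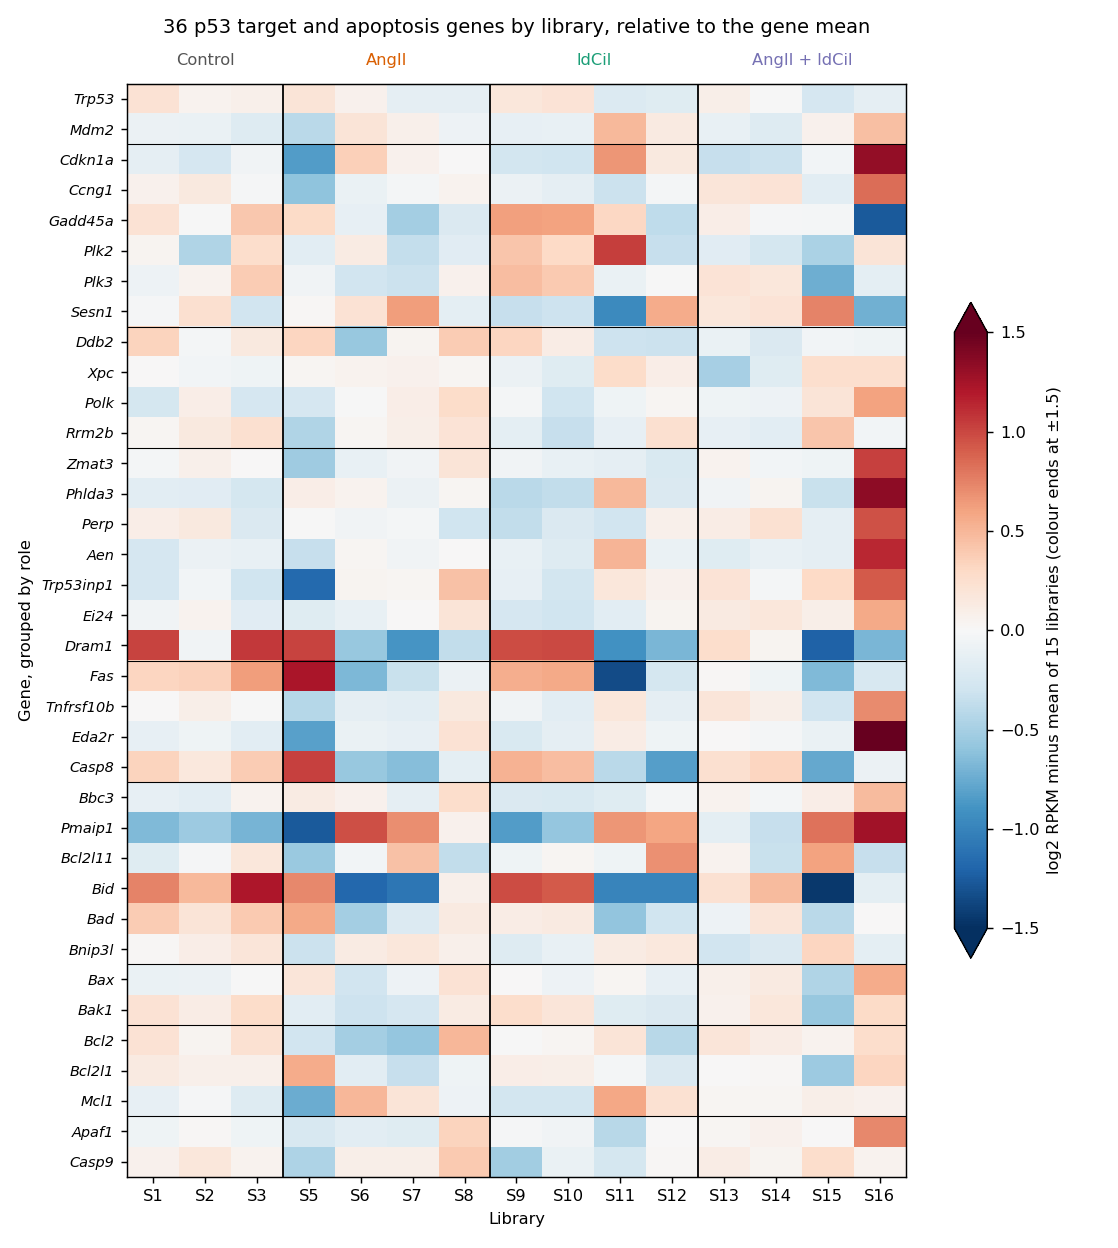
Heat map of the 36 genes (rows, grouped by role) in the 15 libraries (columns, grouped by treatment), as log2 RPKM minus the gene's mean over the libraries, with colours ending at ±1.5. The red column at S16 covers most p53 targets but not Trp53, and Dram1, Bid, Casp8 and Fas share the red of S1, S3, S5, S9 and S10 in opposition to Pmaip1.

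The question of the first comparison was whether AngII moved the p53 and apoptosis genes. At an unadjusted p under 0.05 (limma), 0 of the 36 genes differed between AngII and control, where 6.04% of all genes tested did, and the smallest member p was 0.0718 for Bid. Of the 36, 13 were higher (36.1%, against 53.7% of all genes) and 23 lower, with a median log2 fold change of −0.09 against 0.02 over all genes.

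Trp53 stood at 5.43, 5.27 and 5.29 log2 RPKM in the control libraries, at 5.41, 5.28, 5.08 and 5.08 with AngII, at 5.39, 5.42, 5.01 and 5.03 with ldCil and at 5.31, 5.21, 4.96 and 5.08 with both agents. Its groups overlapped, and the 6 values of 5.08 or less came from 6 of the 7 libraries with a lowest value above −4. The log2 fold change was −0.12 (SE 0.14, limma adjusted p = 0.866) for AngII against control and −0.07 (SE 0.13) for AngII + ldCil against AngII. Mdm2 stood at 7.15, 7.15 and 7.05 in the control libraries, at 6.84, 7.44, 7.32 and 7.17 with AngII, at 7.12, 7.13, 7.74 and 7.38 with ldCil and at 7.13, 7.05, 7.31 and 7.69 with both. Its AngII libraries fell on both sides of the controls, and the fold change was 0.08 on the log2 scale (95% interval −0.32 to 0.47).

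Among the arrest genes, Cdkn1a stood at 7.82, 7.70 and 7.90 log2 RPKM in the control libraries and at 7.11, 8.31, 8.02 and 7.96 with AngII. It stood at 7.68, 7.66, 8.61 and 8.10 with ldCil and at 7.61, 7.63, 7.91 and 9.27 with both agents. Within each treated group the values lay on both sides of the controls, with S5 the lowest library of the 15 and S16 the highest. The fold change for AngII against control was 0.04 on the log2 scale with a 95% interval of −0.75 to 0.84, which holds differences in either direction. The checkpoint genes Gadd45a, Plk2, Plk3 and Sesn1, which encode stress sensors and kinases and a regulator of nutrient signalling, had log2 fold changes from −0.35 to 0.20 with standard errors of 0.23 to 0.35. The repair genes Ddb2, Xpc (damage recognition), Polk (a bypass polymerase) and Rrm2b (a ribonucleotide reductase subunit) had log2 fold changes from −0.17 to 0.16.

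The libraries of AngII and control did not overlap for 2 of the 36 genes, Xpc and Phlda3, both higher with AngII, where 8.74% of all genes tested did not overlap. Xpc had an exact permutation p of 0.0286, the smallest that 35 assignments of 7 libraries allow, but a log2 fold change of only 0.08 (SE 0.18). Phlda3, which encodes an inhibitor of AKT, had a log2 fold change of 0.22 (SE 0.31).

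**Figure D2:**
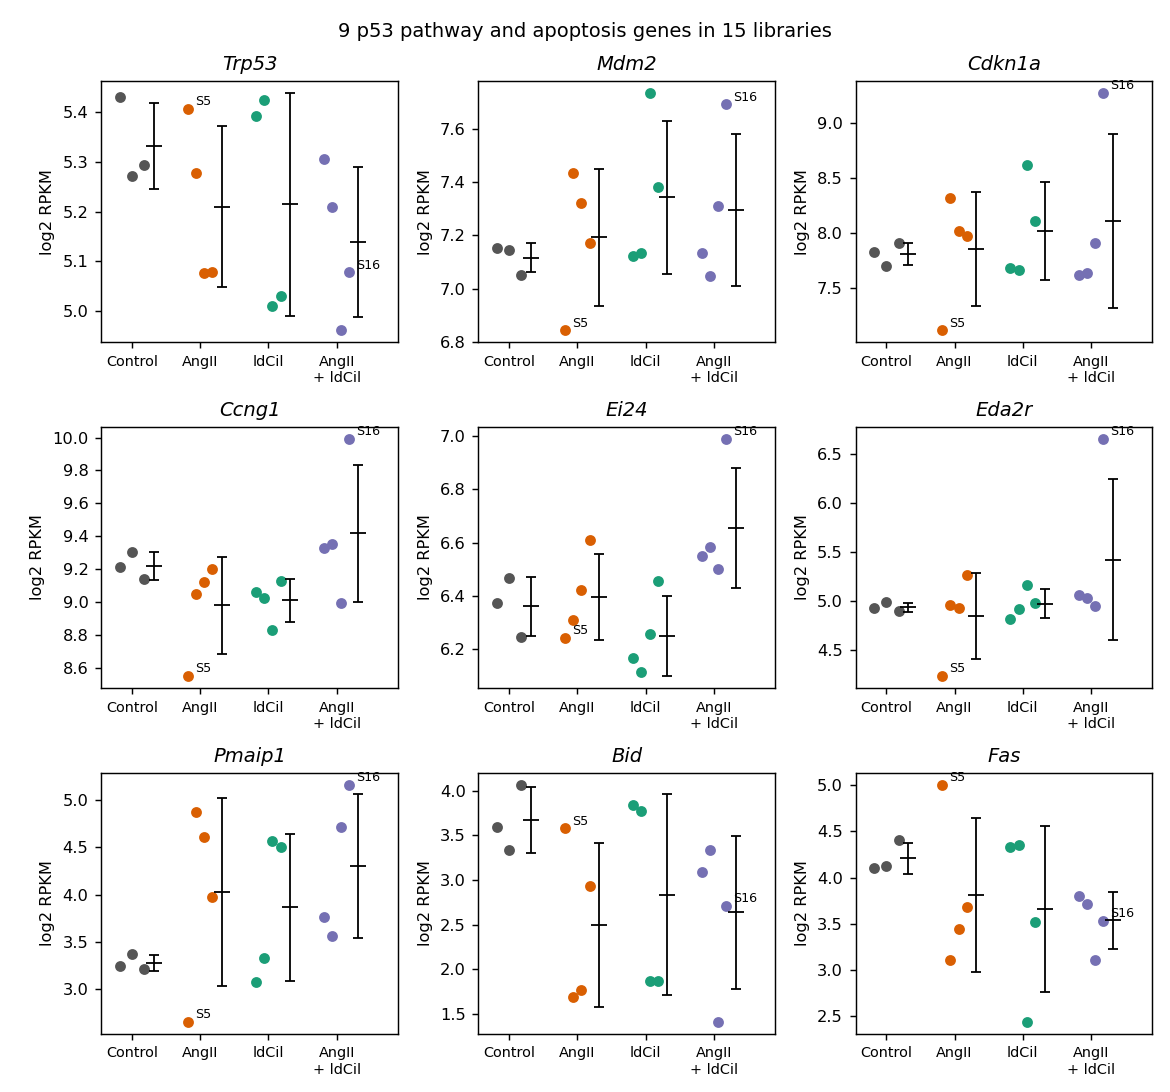
Level of 9 genes in each library (points, log2 RPKM, with a separate axis for each gene) in the 4 treatment groups, with the mean and SD of each group (bars, n = 3 for control and 4 for the others). S5 and S16 are named where they lie, and S16 is the highest point for Cdkn1a, Ccng1, Ei24, Eda2r and Pmaip1.

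The log2 fold changes farthest from 0 for AngII against control were those of Bid, Dram1 (−0.87, SE 0.56) and Pmaip1. Bid, a BH3-only protein cut by caspase 8, stood at 3.60, 3.34 and 4.07 log2 RPKM in the control libraries and at 3.58, 1.68, 1.77 and 2.94 with AngII, and its log2 fold change was −1.18 (SE 0.61, limma adjusted p = 0.782, exact permutation p = 0.114). It stood at 3.84, 3.78, 1.86 and 1.86 with ldCil and at 3.09, 3.34, 1.41 and 2.71 with both. The AngII library S5 lay within the range of the controls, and the other 3, all with a lowest value above −4, lay below it. Exons of Bid share 628 bases with Bcl2l13 on the opposite strand, and the strandedness of the counting is not given in the sources used here. Exons of Bad (524 bases with Gpr137), Ddb2 (652 with Acp2), Gadd45a (337 with E230016M11Rik) and Cdkn1a (273 with AC167363.2) also lie opposite another gene, so reads of the partners could not be told apart without strand. The same holds for Rrm2b (734 bases with Gm49085), Bcl2 (558 with D630008O14Rik) and Bak1 (437 with Ggnbp1). It holds for shorter stretches of Plk3 (84 bases) and Casp9 (94 bases). Exons of Bax share 192 bases with Gm45808 on the same strand.

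Pmaip1, which encodes the BH3-only protein NOXA, stood at 3.25, 3.37 and 3.21 in the control libraries and at 2.65, 4.88, 4.61 and 3.97 with AngII (log2 fold change 0.75, SE 0.52). It stood at 3.07, 3.33, 4.57 and 4.50 with ldCil and at 3.76, 3.56, 4.72 and 5.17 with both. S5 was again on the side of the controls, below all of them. The remaining BH3-only genes differed less, with Bad (which binds BCL-XL) at a log2 fold change of −0.33, Bcl2l11 at −0.12, Bbc3 (PUMA) at 0.15 and Bnip3l, a mitophagy receptor of the same family, at −0.09.

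Fas, a death receptor, stood at 4.10, 4.12 and 4.40 in the control libraries, at 5.01, 3.11, 3.45 and 3.69 with AngII, at 4.33, 4.35, 2.44 and 3.52 with ldCil and at 3.80, 3.71, 3.11 and 3.53 with both. The AngII group held the highest of the 15 values, S5, and 3 values below every control. Its log2 fold change was −0.40 (SE 0.45), that of caspase 8, which acts below Fas, was −0.37 (SE 0.41), and that of the TRAIL receptor Tnfrsf10b was −0.17 (SE 0.19). The pore-forming Bax and Bak1 had log2 fold changes of 0.07 (SE 0.19) and −0.35 (SE 0.19), the inhibitors Bcl2, Bcl2l1 (BCL-XL) and Mcl1 of −0.38, −0.09 and 0.08, and the apoptosome genes Apaf1 and Casp9 of −0.02 and −0.07.

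With the 2 sets of libraries given by their lowest value as a term of the limma fit, an alternative chosen after seeing the data, the AngII value of Bid became −0.03 (SE 0.39) and that of Pmaip1 −0.34 (SE 0.23). In this fit an unadjusted p under 0.05 was found for 3 of the 36, Cdkn1a (−0.61), Rrm2b (−0.46) and Bnip3l (−0.35), where 8.44% of all genes did, and 0 had an adjusted p under 0.05. Control libraries occurred in 1 set only, where S5 was the single AngII library, so AngII against control cannot be told apart from the library S5 within that set.

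Cilengitide alone differed from control at an unadjusted p under 0.05 (limma) in 0 of the 36 genes, where 1.95% of all genes did. The smallest p was 0.0579 for Bad, at a log2 fold change of −0.49 (SE 0.24, limma adjusted p = 0.966). The median over the 36 genes was −0.10 against 0.00 over all genes, with 15 higher (50.3% of all genes were) and 21 lower. The libraries did not overlap for 4 genes, Ccng1 (log2 fold change −0.21), Zmat3 (−0.15), Bad (−0.49) and Casp9 (−0.31), all lower, where 6.87% of all genes did not overlap. Cdkn1a and Mdm2 had log2 fold changes of 0.21 (SE 0.37) and 0.23 (SE 0.18), and their values for S9 and S10 lay close to the controls while those for S11 and S12 lay above them. Within the 5 libraries of saline or ldCil with a lowest value below −4, Cdkn1a differed by −0.14 and Mdm2 by 0.01 on the log2 scale. In the fit with the 2 sets of libraries as a term, Rrm2b (−0.42, SE 0.15), Bnip3l (−0.29, SE 0.12) and Casp9 (−0.45, SE 0.17) had an unadjusted p under 0.05. Each had a limma adjusted p of 0.9998, and the share of all genes in that fit is given with the alternatives at the end.

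Cells given both agents differed from control at an unadjusted p under 0.05 (limma) in 1 of the 36 genes, Ei24, where 5.62% of all genes did. Ei24, a p53 target of the endoplasmic reticulum linked to autophagy, stood at 6.37, 6.47 and 6.25 log2 RPKM in the control libraries and at 6.55, 6.58, 6.50 and 6.99 with both agents. It stood at 6.24, 6.31, 6.42 and 6.61 with AngII and at 6.17, 6.12, 6.26 and 6.45 with ldCil. All 4 libraries with both agents lay above all 3 controls, and S16 lay farthest from them. The log2 fold change was 0.29 (SE 0.14, unadjusted p = 0.0481, limma adjusted p = 0.849, exact permutation p = 0.0571), and without S16 it was 0.18, with an unadjusted p over 0.05. Its unadjusted limma p was over 0.05 without any 1 of 9 of the 15 libraries, of which S1, S3, S14 and S16 belonged to the groups compared, and also when only the groups compared were fitted. In the fit with the 2 sets of libraries as a term, the log2 fold change of Ei24 became 0.20 (SE 0.13), with an unadjusted p over 0.05. Bnip3l had an unadjusted p under 0.05 in that fit, at −0.36 (SE 0.12, limma adjusted p = 0.9999). Its value without the term was −0.18 (SE 0.16). Exons of Ei24 share 324 bases with the antisense gene Gm26787.

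The libraries with both agents did not overlap with control for 8 of the 36 genes, 4 higher and 4 lower, where 13.5% of all genes did not overlap. The higher genes were Trp53inp1 (0.54 on the log2 scale), Ei24, Pmaip1 (1.03, SE 0.52) and Mcl1 (0.16). The lower were Ddb2 (−0.26), Fas (−0.67, SE 0.45), Bid (−1.03, SE 0.61) and Bad (−0.40), and Fas, Ddb2 and Mcl1 reached an exact permutation p of 0.0286, the smallest possible. S13 and S14 lay closer to the controls than S15 did for Pmaip1, Fas and Bid. Set against the controls alone, S13 and S14 differed by 0.39 for Pmaip1, −0.45 for Fas and −0.46 for Bid. In the fit with the 2 sets of libraries as a term, the log2 fold change against control was 0.30 (SE 0.21) for Pmaip1. It was −0.13 (SE 0.29) for Fas and −0.27 (SE 0.36) for Bid. Of the 36 genes 20 were higher and 16 lower, where 58.4% of all genes were higher, and the median was 0.07 against 0.05 over all genes.

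The question of adding cilengitide to AngII was answered by AngII + ldCil against AngII. At an unadjusted p under 0.05 (limma), 1 of the 36 genes differed, Ccng1, where 2.58% of all genes did. The 36 genes had 25 higher and 11 lower values, where 52.4% of all genes were higher, with a median log2 fold change of 0.10 against 0.01 over all genes. Libraries of the 2 groups overlapped for each of the 36, where 1.55% of all genes did not overlap, and the smallest exact permutation p was 0.114.

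Ccng1 stood at 8.55, 9.05, 9.12 and 9.20 log2 RPKM with AngII and at 9.33, 9.35, 8.99 and 9.99 with both agents. It stood at 9.21, 9.30 and 9.14 in the control libraries and at 9.06, 9.02, 8.83 and 9.13 with ldCil. S5 lay below and S16 above all other libraries, and S15 was lower than 3 of the 4 AngII libraries. The log2 fold change was 0.44 (95% interval 0.03 to 0.84, unadjusted limma p = 0.0363, exact permutation p = 0.114). It was 0.25 without S16, 0.29 without S5 and 0.10 without both, each with an unadjusted p over 0.05. The AngII by ldCil interaction, the test of whether AngII acted otherwise in the presence of cilengitide, was 0.65 for Ccng1 (SE 0.28, limma adjusted p = 0.958). Without S1, S2, S5, S11 or S16 its unadjusted p was over 0.05. Ccng1 was the 1 gene of the 36 with an unadjusted p under 0.05, where 3.86% of all genes were. The interaction was positive for 28 of the 36 and negative for 8, where it was positive for 52.2% of all genes.

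Eda2r, a p53-induced receptor of the TNF family, stood at 4.23, 4.95, 4.93 and 5.26 with AngII and at 5.06, 5.02, 4.95 and 6.65 with both agents. It stood at 4.93, 4.98 and 4.89 in the control libraries and at 4.82, 4.91, 5.16 and 4.98 with ldCil. Apart from S5 and S16, its values ran from 4.82 to 5.26. The log2 fold change of AngII + ldCil against AngII was 0.58 (95% interval −0.09 to 1.24), and 0.17 without S16. For Cdkn1a the same contrast gave 0.25 (95% interval −0.48 to 0.99), and −0.13 without S16. The difference was 0.51 between S13, S14 and S5, the single AngII library of that set. It was 0.49 between S15, S16 and the other 3 AngII libraries, where S16 stood at 9.27. S15, at 7.91, lay below all 3 of those AngII libraries (7.96 to 8.31).

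Of the 7 other growth control and death targets of p53, 0 had an unadjusted p under 0.05 in this contrast (limma), and Dram1 was lower (−0.20). The other 6 had positive values, Trp53inp1 (0.51, SE 0.28), Perp (0.39, SE 0.19), a desmosomal membrane protein, Zmat3 (0.37, SE 0.21), an RNA-binding protein, Aen (0.27, SE 0.25), an apoptosis-enhancing nuclease, Phlda3 (0.23, SE 0.29) and Ei24 (0.26, SE 0.13). Without S16 their log2 fold changes were 0.32, 0.17, 0.11, −0.05, −0.14 and 0.15. The number of the 36 genes with a positive value was 19 without S16, and their median was 0.02.

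**Figure D3:**
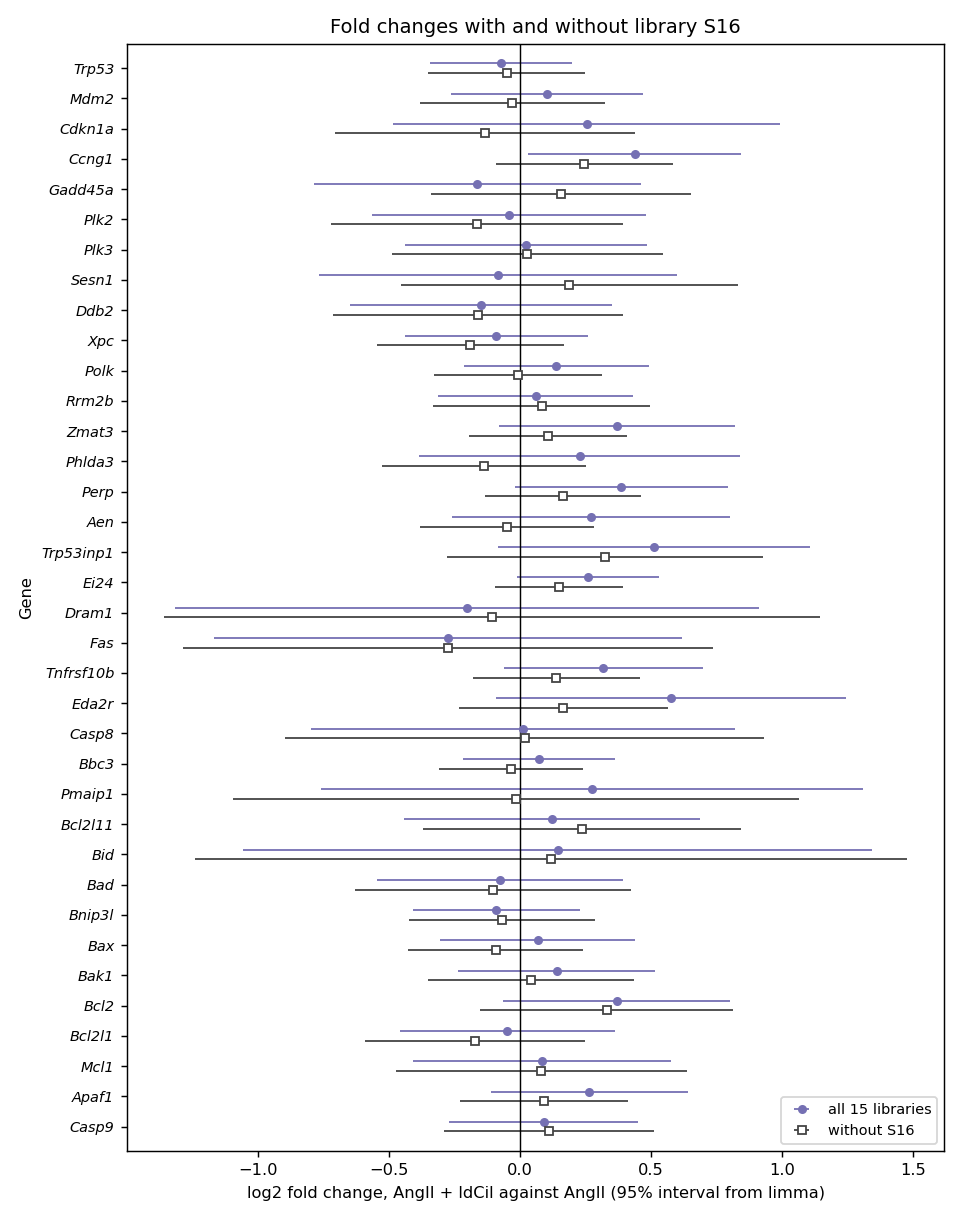
Log2 fold change of AngII + ldCil against AngII for each of the 36 genes, from limma, with its 95% interval (horizontal bars), using all 15 libraries (filled circles) and without S16 (open squares). Ccng1 at 0.44 is the single gene whose interval lies above 0 with all libraries, and it includes 0 without S16.

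With the 2 sets of libraries as a term, an unadjusted p under 0.05 was found in this contrast (limma) for 8 of the 36 genes, where 11% of all genes had one and where 0 of the 36 had an adjusted p under 0.05. Ccng1 (0.49), Zmat3 (0.44), Perp (0.42), Trp53inp1 (0.68), Ei24 (0.31), Eda2r (0.72) and Pmaip1 (0.64) were higher with both agents and Dram1 (−0.57) was lower. With S5 and S16 also left out there were 4 such genes, Trp53, Dram1, Bid and Bak1, where 6.37% of all genes passed. Ccng1 then stood at −0.016. The AngII libraries left, S6, S7 and S8, all had a lowest value above −4, where S15 was the single AngII + ldCil library. S15 held the lowest of the 15 values for each of these 4 genes. Within that set the treatment cannot be told apart from the library S15.

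The extremes of these genes gathered in a few libraries. S16 held the highest of the 15 values for 16 of the 36 genes (44.4%), where it did so for 16.3% of all genes tested. These 16 were Cdkn1a and Ccng1 of the arrest genes, Polk of the repair genes, 6 of the 7 other targets of growth control and cell death (Zmat3, Phlda3, Perp, Aen, Trp53inp1 and Ei24), the receptors Tnfrsf10b and Eda2r, the BH3-only genes Bbc3 and Pmaip1, both pore-forming genes Bax and Bak1, and Apaf1. Bak1 was nearly tied, with S16 only 0.005 above the next library, the control S3, and 0.19 above the median of the other 14 libraries. No anti-apoptotic gene and neither Trp53 nor Mdm2 was highest in S16. Mdm2 was next to highest in S16, at 7.69 against 7.74 in S11, and lay 0.54 above the median of the other 14 libraries, and Bcl2l1 was also next to highest (5.79, below 6.03 in S5).

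S16 exceeded the median of the other 14 libraries by 1.70 log2 units for Eda2r, 1.5 for Pmaip1, 1.47 for Phlda3, 1.41 for Cdkn1a, 1.24 for Aen and 1.08 for Zmat3. For Phlda3 it stood at 7.87 where the others spanned 6.12 to 7.01, and for Aen at 6.89 where they spanned 5.42 to 6.26. A difference above 0.5 was found for 16 of the 36 genes (44.4%) against 15.5% of all genes. Trp53 went the other way by a small amount, −0.20. Gadd45a, also a p53 target, had its lowest value in S16, 3.42 against 4.17 to 5.30 in the others, and Sesn1 lay 0.82 below the median of the other libraries. The ldCil library S11 differed from the median of its other libraries by 0.21 for Eda2r, 0.91 for Pmaip1, 0.61 for Phlda3 and 0.75 for Cdkn1a. It differed by 0.61 for Aen, −0.08 for Zmat3 and −1.05 for Sesn1. Over the 36 genes the median difference was −0.08 in S11 and 0.27 in S16.

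A wider list of other p53 pathway genes, of which 51 were tested, had 16 highest in S16 (31.4%), and 11 of the 51 (21.6%) exceeded the other libraries by more than 0.5. In 39 other genes of the apoptosis machinery 7 were highest in S16 (17.9%), where 16.3% of all genes tested were. In 38 genes of DNA damage signalling and repair 9 were (23.7%), and in 33 cell cycle genes 0. The fibroblast and macrophage means were lowest in S16 as well, as given above, and their part in the values of the 36 genes was not tested.

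S5, an AngII library, was the opposite for part of the group. It held the lowest value for 13 of the 36 genes (36.1%), where it did so for 21.8% of all genes, and for 18 of the 51 other p53 pathway genes (35.3%). S5 lay more than 0.5 below the median of the other libraries for 8 of the 36 genes (22.2%), against 18.3% of all genes. It lay more than 0.5 above that median for 6 of the 36 (16.7%), against 17.8% of all genes. Mdm2, Cdkn1a, Ccng1, Zmat3, Aen, Trp53inp1, Eda2r, Tnfrsf10b, Pmaip1 and Mcl1 were among the 13, together with Rrm2b, Bcl2l11 and Bnip3l. Trp53inp1, a p53 partner in autophagy and cell death, stood at 4.38 in S5 against 5.25 to 6.46 in the others. S5 also held the highest value for 4 of the 36, Fas, Casp8, Bad and Bcl2l1 (11.1%, where it did so for 21.8% of all genes), and the highest macrophage mean. S15 held the lowest value for 8 of the 36 (22.2%), Bax and Bak1 among them, where it did so for 10.9% of all genes.

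**Figure D4:**
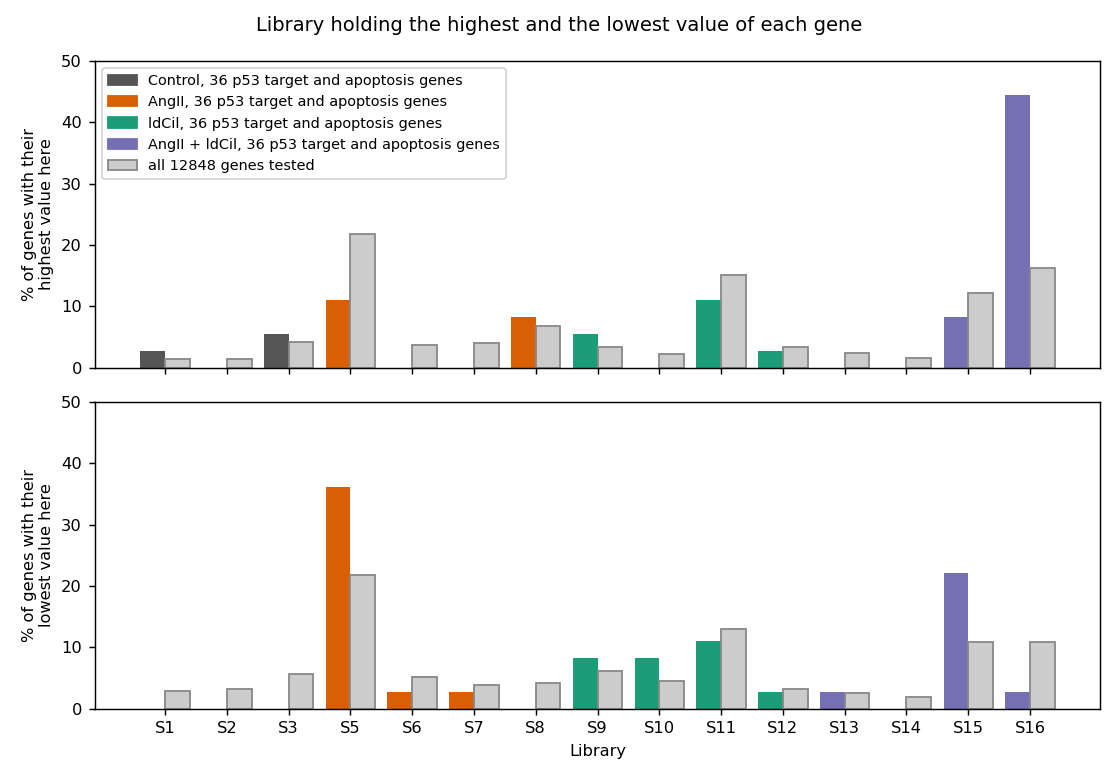
Share of genes (percent) whose highest value (upper panel) or lowest value (lower panel) among the 15 libraries fell in each library, for the 36 p53 and apoptosis genes (bars coloured by treatment) and all 12848 genes tested (grey bars). S16 holds 44.4% of the highest values of the 36 genes against 16.3% of all genes, and S5 holds 36.1% of the lowest against 21.8%.

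The set of 7 libraries with a lowest value above −4 did not overlap with the other 8 for 8 of the 36 genes (22.2%), where this held for 4.97% of all genes tested. Mdm2, Cdkn1a, Xpc and Pmaip1 were higher in all 7, and Dram1, Fas, Casp8 and Bid were lower in all 7. For Cdkn1a the sets nearly met, with the lowest of the 7 at 7.91 in S15 and the highest of the 8 at 7.90 in S3, whereas for Pmaip1 the corresponding values were 3.97 in S8 and 3.76 in S13. The interferon genes were low in the same 7 libraries, with S13 and S14 as the other low ones, and a part of either measure in the levels of these 8 genes was not tested.

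Dram1, Fas and Casp8 were high in the 5 libraries with the highest interferon genes. Dram1, a lysosomal p53 target that promotes autophagy, stood at 3.24, 3.28, 3.24, 3.21 and 3.21 log2 RPKM in S1, S3, S5, S9 and S10 and at 1.01 to 2.49 in the other 10 libraries. Casp8 stood at 3.16 to 3.84 in these 5 libraries and at 2.0 to 3.15 in the other 10, and Bid at 3.58 to 4.07 and 1.41 to 3.34. These 5 libraries, from 3 of the 4 groups, were the 5 highest for 3 of the 36 genes (Dram1, Casp8 and Bid), where this held for 4.52% of all genes tested. They were the 5 lowest for Trp53inp1, Pmaip1 and Mcl1, again 3 of the 36, where this held for 2.48% of all genes. Fas had S5 highest and S3, S10 and S9 next, with the control S2 at 4.12 just above S1 at 4.10.

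**Figure D5:**
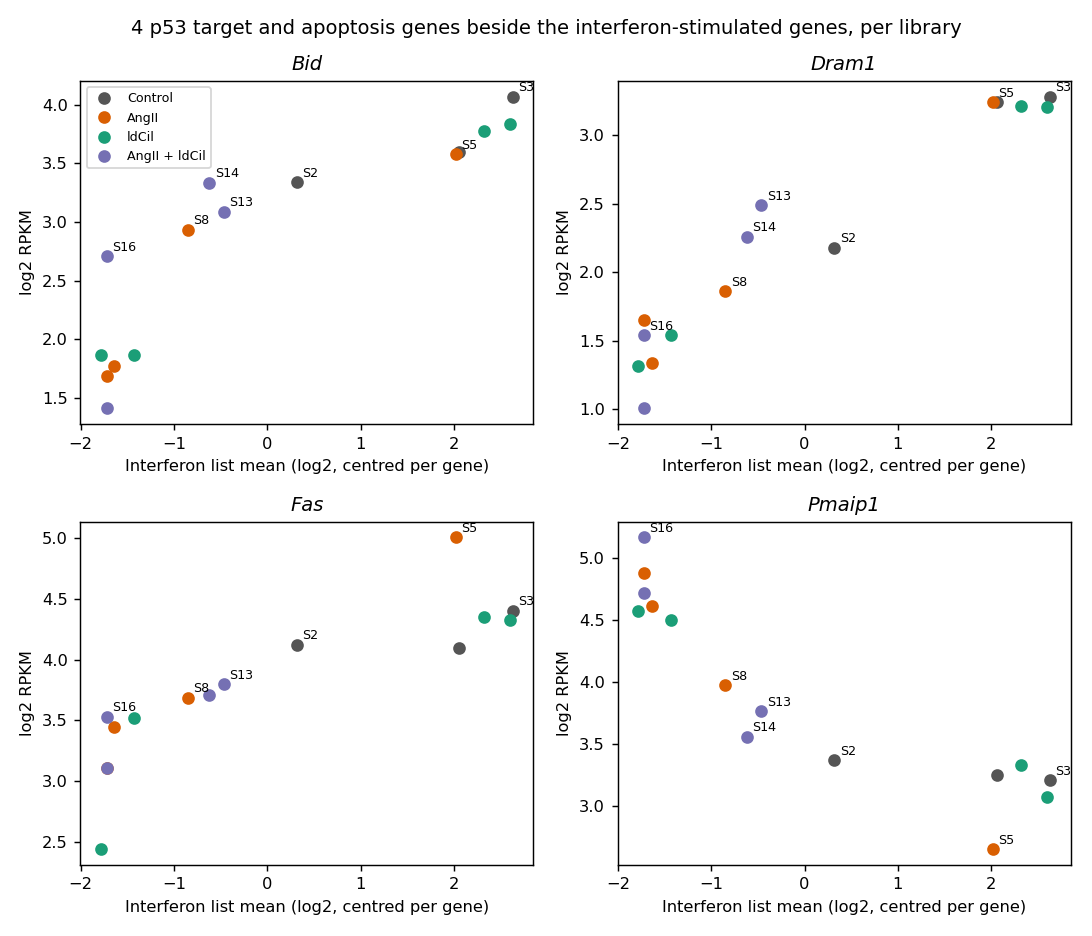
Level of Bid, Dram1, Fas and Pmaip1 (log2 RPKM) in each library against the mean of 29 interferon-stimulated genes (log2, centred per gene), coloured by treatment with some libraries named. S3 and S5 lie at the right of each panel with S1, S9 and S10, where Bid, Dram1 and Fas are high and Pmaip1 is low.

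Other genes of the pathway, from a list of p53 pathway genes that did not include the 36, were described in the same way. For AngII against control 4 of 51 had an unadjusted p under 0.05 (limma), where 6.04% of all genes did, and all 4 were higher, with the phosphatase Ptprv at a log2 fold change of 1.16 (SE 0.49), the ubiquitin ligase Rchy1 at 0.32 (SE 0.13), the lipid transfer protein Pltp at 0.79 (SE 0.35) and the arrest gene Rprm at 1.01. For AngII + ldCil against AngII 2 of 51 had one, where 2.58% of all genes did, the stress protein Nupr1 (−0.54, SE 0.16) and the glutathione peroxidase Gpx1 (0.29, SE 0.09). The median of the 51 was 0.02 in both contrasts, close to that of all genes.

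Of 39 other apoptosis genes, 2 had an unadjusted p under 0.05 for AngII against control, the DNase Dffb (0.74, SE 0.27) and Casp6 (−0.45, SE 0.20), and 0 did for AngII + ldCil against AngII. Of 38 genes of DNA damage signalling and repair, Ercc3 (−0.32, SE 0.12) had one for AngII against control, and 4 had one for AngII + ldCil against AngII, which were the kinases Atm (0.65, SE 0.28) and Atr (0.32, SE 0.14), which act above p53, the ligation factor Xrcc4 (−0.58, SE 0.23) and the recombination gene Brca2 (0.56). Rprm and Brca2 were named after their values were seen. None of 33 cell cycle genes had one in either contrast. For AngII + ldCil against AngII, 30 of the 33 had positive values, where 52.4% of all genes did, with a median of 0.17 against 0.01. Their mean, centred on each gene's own mean, was −0.14, −0.28, −0.43 and 0.66 in the AngII libraries S5 to S8. It was 0.29, 0.21, 0.17 and −0.24 in S13 to S16. The same shares of all genes, 6.04% and 2.58%, stand beside the counts of these lists. All of these genes had an adjusted p (limma) of at least 0.782.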

How the data were processed

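RNA captured by its poly(A) tail was sequenced in 15 libraries, 3 control and 4 of each other group. By the submitters' notes, the authors aligned reads to GRCm38 (mm10) with HISAT2 and counted them with HTSeq, and their versions, the annotation and the strandedness were not given in the sources used here. Values that the authors deposited are log2 RPKM from conditional quantile normalisation, a correction for GC content and gene length, and all libraries share an upper quartile of 4.93. Depth per library is unknown. Of 14337 gene identifiers, 14329 were matched to GENCODE M21 on GRCm38.

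In R 4.3.3, limma 3.58.1 fitted 1 mean per group to all 15 libraries, over the 12848 genes whose mean was 0 or more, with a trend on expression level. No model for these libraries is stated in the sources used here. P-values are 2-sided, with Benjamini-Hochberg adjustment over every gene in the fit. The 5 contrasts set AngII, ldCil and their combination against control, set the combination against AngII, and tested the interaction, so they share libraries. Exact permutation tests (2-sided) enumerated all assignments of the libraries of 2 groups.

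The 36 genes and the other lists were chosen with earlier results of these data known. Values of each library are given for Trp53, Cdkn1a, Mdm2, genes with an unadjusted p under 0.05 and the 4 genes with the largest range. Dram1, Casp8, Phlda3 and Aen were detailed after their values were seen. The alternatives were no filter, a filter at 2, log2(RPKM + 1), only the groups compared, and each library left out. Leaving out S5 and S16 together, quantile normalisation, and the 2 sets of libraries with a lowest value below or above −4 as a term were added after seeing the data. The fit was tested on simulated data.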

Additional observations from a re-analysis of the deposited data

Results flagged for a closer look

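In groups of 4 libraries, 1 value stood apart from the other 3 (Dixon's test at the 95% level) in 11 of 108 cases (10.2%), where chance gives about 1 in 20 and where this held in 7.79% of cases over all genes tested. Of the 11, 6 were S16 of the AngII + ldCil group, 5 as the highest and 1 as the lowest value, which is 16.7% of the 36 genes against 4.55% of all genes. S16 stood above its group for Eda2r at 6.65 log2 RPKM (the others 4.95 to 5.06), Aen at 6.89 (5.58 to 5.65), Zmat3 at 5.95 (4.86 to 4.98), Ei24 at 6.99 (6.50 to 6.58) and Apaf1 at 4.77 (4.05 to 4.11), and below it for Gadd45a at 3.42 (4.65 to 4.77). In the ldCil group S11 stood apart for Aen at 6.26 (5.57 to 5.65) and Apaf1 at 3.63 (3.99 to 4.06), and S12 for Bcl2l11 at 2.82 (2.08 to 2.17). In the AngII group S8 stood apart for Perp at 6.94 (7.19 to 7.24) and Apaf1 at 4.38 (3.80 to 3.89). The cause was not tested.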

How the results depend on the processing

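The number of the 36 genes with an adjusted p under 0.05 (limma) was 0 in all 5 contrasts under each alternative run, and the interaction had no fit with only the groups compared because it uses all 4. The numbers with an unadjusted p under 0.05 moved, and are given with the share of all genes in the same fit. With only the groups compared they were 2 (8.18%) for AngII against control, 1 (3.2%) for ldCil against control, 6 (10.7%) for AngII + ldCil against control and 0 (1.29%) for AngII + ldCil against AngII. With S5 and S16 left out together they were 6 (14.7%) for AngII against control, 2 (3.73%) for ldCil against control, 0 (1.82%) for AngII + ldCil against AngII and 0 (6.24%) for the interaction. With the 2 sets of libraries as a term they were 3 (8.44%) for AngII and 3 (1.7%) for ldCil against control, 8 (11%) for the combination against AngII and 9 (9.38%) for the interaction. In this fit, in the same order, they were 1 (2.97%), 3 (2.17%), 4 (6.44%) and 2 (6.11%) without S5, 4 (11%), 3 (2.21%), 8 (14.4%) and 10 (11.9%) without S16, and 2 (2.91%), 4 (2.58%), 4 (6.37%) and 3 (5.4%) without both, where the Ccng1 value for AngII + ldCil against AngII changed sign, to −0.016. The cause was not tested.

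With each library left out in turn the numbers ranged from 0 to 4 for AngII against control (4 without S5, with 2.08% to 12.8% of all genes over the omissions), 0 to 2 for ldCil against control (2 without S5, 0.809% to 4.31%) and 0 to 3 for AngII + ldCil against control (3 without S5, 0 without any 1 of 8 libraries, S1, S3, S6, S7, S9, S10, S11 and S16, 1.63% to 8.02%). They ranged from 0 to 6 for AngII + ldCil against AngII (6 without S8 or S15, 0 without S5 or S16, 1.49% to 6.02%) and 0 to 5 for the interaction (5 without S15, 0 without S1, S2, S5, S11 or S16, 2.26% to 7.22%). Ccng1 ranged from 0.25 to 0.58 and Ei24 from 0.18 to 0.35. Of 330 alternative values, 241 kept their call or stayed within 1.5 times, 58 moved, 30 lost their call and 1 reversed. The numbers of genes highest in S16 and lowest in S5 stayed within 1.5 times under quantile normalisation and a filter at 2. No paired analysis was possible because the labels number the libraries in 1 series from S1 to S16, in which S4 is absent. No number is shared between groups, and replicate numbers within a group were given here only as names. Without read counts, no limit from depth can be given.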
